A study of Rattus norvegicus with 24 samples.

Results

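The histone genes were taken from the deposited tables by name. Every gene whose symbol begins, ignoring case, with Hist1h, Hist2h, Hist3h, Hist4h, H1f, H2a, H2b, H3a to H3f or H4a to H4f was included, which gave 48 of the 32883 genes in the tables. The rule uses no measured value, but the members were chosen with earlier results of these data known. Classes follow the gene names, except that the H1f genes on chromosome 17 and H2bu1 on chromosome 10 count as clustered. This gives 37 clustered replication-type genes and 8 variant genes (H2ax, H2az1, H2az2, H2aj, H2afb3, H3f3a, H3f3b and H3f3c). The remaining 3 are linker histone genes outside the clusters (H1f7, H1f8 and H1f10). Of the 48, 43 reached the minimum level for testing. The other 5 (H2ac1, H2bc1, H1f7, H1f8 and H2afb3) stayed at or below 0.293 FPKM in every library, where FPKM is the number of fragments scaled by transcript length and library size, which allows levels to be compared between genes.

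The RNA came from primary neurons of the striatum of neonatal rats, kept in culture for 7 days. The striatum is the forebrain region that receives most of the dopamine input. Each of the 3 experiments crossed SKF, an agonist of the D1 dopamine receptor, with a bromodomain inhibitor, and the submitters' title names the question as the effect of such inhibitors on genes induced through that receptor. Experiment 1 had cultures given DMSO, SKF, JQ1 or SKF plus JQ1 for 60 min, experiment 2 had DMSO, SKF, iBD2 or SKF plus iBD2 for 60 min, and experiment 3 repeated the treatments of experiment 1 for 24 h. The labels give neither doses nor a rat strain. There were 2 libraries per group, but only 1 for SKF plus iBD2 (replicate 2 of that group is not analysed here), whose spread is taken from the remaining groups. Nothing in the labels ties replicates to separate cultures. The p-values therefore reflect only how far these libraries spread, which may be technical. RNA was depleted of ribosomal RNA and was not selected for poly(A) tails.

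Replication-type histone genes sit in clusters, mostly have no introns, and supply the bulk of histone protein during S phase, when new DNA is packed into nucleosomes. Their messages end in a stem-loop bound by SLBP in place of a poly(A) tail, so libraries made without poly(A) selection can capture them. Variant genes such as those of H3.3, H2A.Z and H2A.X are expressed also outside S phase and serve non-dividing cells, neurons among them. Bromodomains bind acetylated lysines, many of them on histone tails, and JQ1 occupies the bromodomains of the BET family of proteins.

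Depth ranged from 4.36 to 14.9 gigabases of aligned sequence. All 10 neuron markers were detected in every library, with a summed level of 2120 to 2717 FPKM over libraries, so the labelled cell type had its defining markers. The proliferation gene Mki67 ranged from 0.267 to 1.44 FPKM. Markers of astrocytes, oligodendrocyte lineage and microglia were present as well, so the cultures were not neurons alone. In bulk RNA, fewer cells of a type and less RNA per cell cannot be told apart.

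In DMSO cultures histone messages were abundant. In experiment 1 the 37 clustered genes summed to 575 ± 36.1 FPKM (SD, n = 2) and the 8 variant genes to 434 ± 63.3 FPKM (SD, n = 2). The most abundant member was H3f3b, which with H3f3a encodes H3.3, at 227 and 167 FPKM in the 2 DMSO libraries of experiment 1. The symbols H3f3a and H3f3b lie on opposite chromosomes in the files and in the RefSeq gene table, so which of the pair is which is uncertain. The most abundant clustered gene was the H4 gene Hist2h4a, at 96.5 and 89.7 FPKM. Other clustered genes were near 1 FPKM or below it, such as the H2B gene Hist2h2be at 0.332 and 0.573 FPKM.

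Some rows are not what their names say, and some share reads. Hist1h2ao has the length of an H4 gene (312 nucleotides), both genes named Hist1h2ail1 have the length of an H3 gene (411 nucleotides), and H4f3 (663 nucleotides) carries the RefSeq synonym of a linker histone gene, so these 4 are counted here as H4, H3 and H1. The copies of a repeated symbol are numbered by position on chromosome 17 of Rnor_6.0, with Hist1h2ail1 copy 1 starting at 44763598 and copy 2 at 44839721, and Hist1h2an copy 1 starting at 43779174 and copy 2 at 44520537. Hist2h4, Hist1h4b and Hist1h2ao on chromosome 4 had coverage equal within 0.101% in every library, so their 3 rows are 1 measurement of reads that could not be told apart. Hist2h2aa2 and Hist2h2aa3 on chromosome 2 were equal within 5.17%. Values of all near-identical copies are uncertain in the same way. The H2B genes Hist1h2bq and Hist1h2bo each have a transcript with 2 exons, whereas the other 35 clustered genes have 1 exon. The values of Hist1h2bq and Hist1h2bo sum all their transcripts, so a spliced form may contribute.

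JQ1 for 60 min raised most clustered histone genes and few variant genes. Of the 43 genes tested, 31 were higher than DMSO and 0 lower at an adjusted p under 0.05 (limma, Benjamini-Hochberg over 13999 genes), where 1.8% of all genes tested were higher and 2.64% lower. For each of the 31 both JQ1 libraries lay above both DMSO libraries. With 2 libraries per group a call nearly assures this, so it adds no support. Counting the 3 indistinguishable H4 copies once leaves 29 of 41, and 27 of 33 clustered genes. Of the 35 clustered genes 29 rose, with a median log2 change of 1.16, and of the 7 variant genes 2 rose, with a median of 0.16. The median over all genes tested was 0.00. The summed level of the clustered genes went from 575 FPKM in DMSO to 1065 FPKM in JQ1, a ratio of 1.85, and that of the variant genes from 434 to 544 FPKM, a ratio of 1.25.

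The largest change was that of H4f3, a linker histone gene on chromosome 17 (43797721 to 43798383). Its level was 5.69 and 5.21 FPKM in the DMSO libraries of experiment 1 and 18.9 and 19.1 FPKM in the JQ1 libraries. The groups lie far apart, and the log2 change was 1.74 ± 0.11 (SE; limma adjusted p = 2.38e-08). H2bc12, an H2B gene, had 4.83 and 6.09 FPKM in DMSO and 16.1 and 18.6 FPKM in JQ1. Its JQ1 libraries were both above both controls, with a log2 change of 1.61 ± 0.16 (SE; limma adjusted p = 4.97e-06).

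Of the 2 clustered genes of each histone type with the highest mean over all libraries, all but Hist3h2ba rose. Among the H1 genes, H1f2 went from 48.6 and 40.2 FPKM in DMSO to 74.8 and 76.1 FPKM in JQ1. H1f4 went from 31.9 and 27.8 FPKM to 47.8 and 50.2 FPKM. In both linker genes the groups do not overlap, and the log2 changes were 0.79 and 0.73. The less abundant linker genes followed: H1f5 had 4.46 and 4.06 FPKM against 8.61 and 8.78 FPKM, and H1f1 had 1.57 and 0.960 FPKM against 2.76 and 2.39 FPKM. H1f6 had 0.119 and 0.249 FPKM against 0.661 and 0.436 FPKM, and its groups were apart but did not pass the test. The H2A gene Hist1h2ah, a core histone of the octamer around which DNA winds, had 19.1 and 16.7 FPKM in DMSO against 42.6 and 41.9 FPKM in JQ1. Hist2h2aa3, also H2A, had 12.5 and 8.79 FPKM against 28.8 and 29.3 FPKM. The log2 changes of these H2A genes were 1.24 and 1.45. H2ac21, an H2A gene with more RNA than Hist2h2aa3 in DMSO, had 14.02 and 13.65 FPKM against 16.97 and 18.19 FPKM, and its log2 difference of 0.36 did not pass. Among the H2B genes, Hist1h2bq had 22.6 and 21.4 FPKM in DMSO and 49.6 and 49.5 FPKM in JQ1. Hist3h2ba, the most abundant H2B gene, had 71.3 and 62.0 FPKM in DMSO and 70.9 and 63.6 FPKM in JQ1. These H2B genes behaved differently: Hist1h2bq rose by a log2 change of 1.18 ± 0.04 (SE; limma adjusted p = 6.21e-11), and the groups overlap for Hist3h2ba, whose log2 difference was 0.04 with a 95% interval of -0.08 to 0.15.

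Of the H3 genes, Hist1h2ail1 copy 1 had 36.7 and 40.5 FPKM in DMSO and 110 and 110 FPKM in JQ1. Hist1h2ail1 copy 2 had 11.5 and 13.5 FPKM against 33.9 and 33.7 FPKM. Both had JQ1 libraries far above the controls, with log2 changes of 1.52 and 1.42. The H4 genes differed by locus. Hist1h4m on chromosome 17 had 62.5 and 58.7 FPKM in DMSO and 139 and 128 FPKM in JQ1. Hist2h4a on chromosome 4 had 96.5 and 89.7 FPKM against 140 and 136 FPKM. Both were higher in each JQ1 library than in either control, with log2 changes of 1.16 ± 0.07 and 0.59 ± 0.05 (SE). By type, all 5 H3 genes and all 3 distinct H4 measurements rose, as did 5 of 6 H1, 8 of 10 H2A and 6 of 9 H2B genes. With the copies counted once, the medians of the log2 change ran from 0.59 in H4 and 0.81 in H1 to 1.26 in H2A, 1.30 in H2B and 1.36 in H3.

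The size of the change differed by locus, though no test compared loci or histone types. All clustered genes on chromosome 4 were counted as H4 and both on chromosome 10 are H2B, so locus and type overlap in part. On chromosome 17, which holds the main cluster, 21 of 23 tested genes rose, with a median log2 change of 1.24. On chromosome 2 it was 4 of 6 (median 1.06) and on chromosome 4 both measurements rose, by 0.59 for Hist2h4a and 0.44 for the 3 indistinguishable H4 copies. On chromosome 10 it was 0 of 2: beside Hist3h2ba, the H2B gene H2bu1 had 19.5 and 18.0 FPKM in DMSO and 19.2 and 17.8 FPKM in JQ1. These overlap, and the log2 difference was 0.01 ± 0.07 (SE). The summed FPKM of each locus changed by ratios of 2.28, 2.08, 1.43 and 1.0 in the same order, with all rows of the H4 copies in the sum. The 6 clustered genes that did not pass the test included H1f6 (log2 difference 0.63, adjusted p = 0.0558 by limma), Hist1h2an copy 2 (0.68), H2ac21 (0.36) and Hist2h2be (0.31), of which H1f6 and Hist2h2be were below 1 FPKM in the DMSO and JQ1 libraries of experiment 1. The calls of H1f1, Hist1h2af and Hist1h2bl were lost without replicate 6 of DMSO or replicate 5 of JQ1, and those of H1f1 and Hist1h2bl also without replicate 6 of JQ1. H1f6 and the called gene Hist1h2af would not have met the minimum for testing without libraries given JQ1, so their tests favour a rise.

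**Figure D1:**
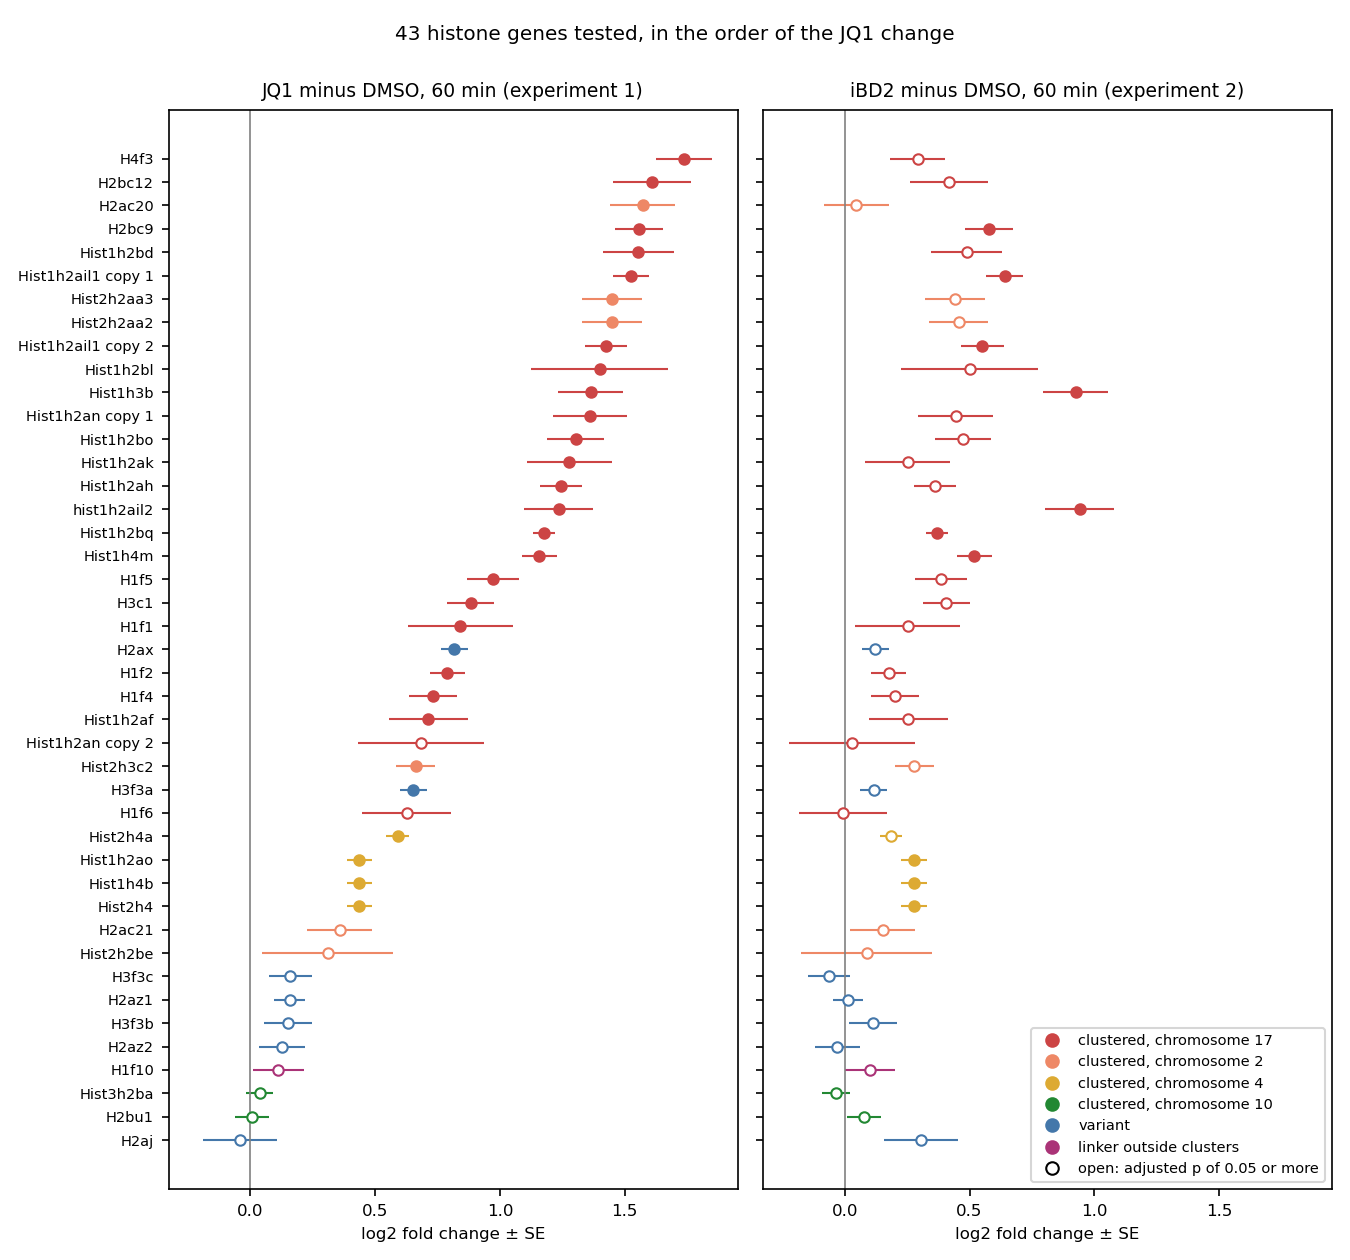
Log2 fold change with its standard error (horizontal axis) of the 43 histone genes tested, after 60 min of JQ1 (left) or iBD2 (right), each against the DMSO group of its experiment. Genes are in the order of the JQ1 change, colours mark the locus or class, and filled points passed the test. Chromosome 17 genes make up most of the top of the JQ1 panel, with H2ac20, Hist2h2aa3 and Hist2h2aa2 of chromosome 2 among them. The chromosome 10 pair and most variants lie near 0.

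Among the variants, H2ax and H3f3a rose at 60 min. H2ax encodes the H2A form that is phosphorylated at DNA breaks. It had 19.5 and 18.3 FPKM in DMSO and 33.5 and 32.8 FPKM in JQ1, groups that do not overlap, with a log2 change of 0.82 ± 0.05 (SE; limma adjusted p = 2.93e-08). H3f3a had 136 and 123 FPKM in DMSO and 191 and 210 FPKM in JQ1, with a log2 change of 0.65 ± 0.05 (SE; limma adjusted p = 4.13e-07). H3f3b, the other H3.3 gene by name, had 227 and 167 FPKM in DMSO and 210 and 214 FPKM in JQ1. The DMSO libraries of H3f3b lie on either side of the JQ1 libraries, and its log2 difference was 0.15 ± 0.10 (SE). H3f3c had 44.6 and 38.8 FPKM against 42.3 and 49.6 FPKM. The H2A.Z gene H2az1 had 48.1 and 39.1 FPKM against 48.0 and 47.3 FPKM. Its partner H2az2 had 3.72 and 2.97 FPKM against 3.56 and 3.67 FPKM. For these 3 genes the groups overlap and the log2 differences were 0.13 to 0.16. H2aj, an H2A gene classed as a variant by name, lies beside the clustered gene Hist2h4a on chromosome 4. It had 0.666 and 0.529 FPKM against 0.644 and 0.471 FPKM and the lowest log2 difference of all members, -0.04. The linker gene H1f10, which is not part of a cluster, had 12.6 and 11.2 FPKM against 13.1 and 12.2 FPKM, which overlap.

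**Figure D2:**
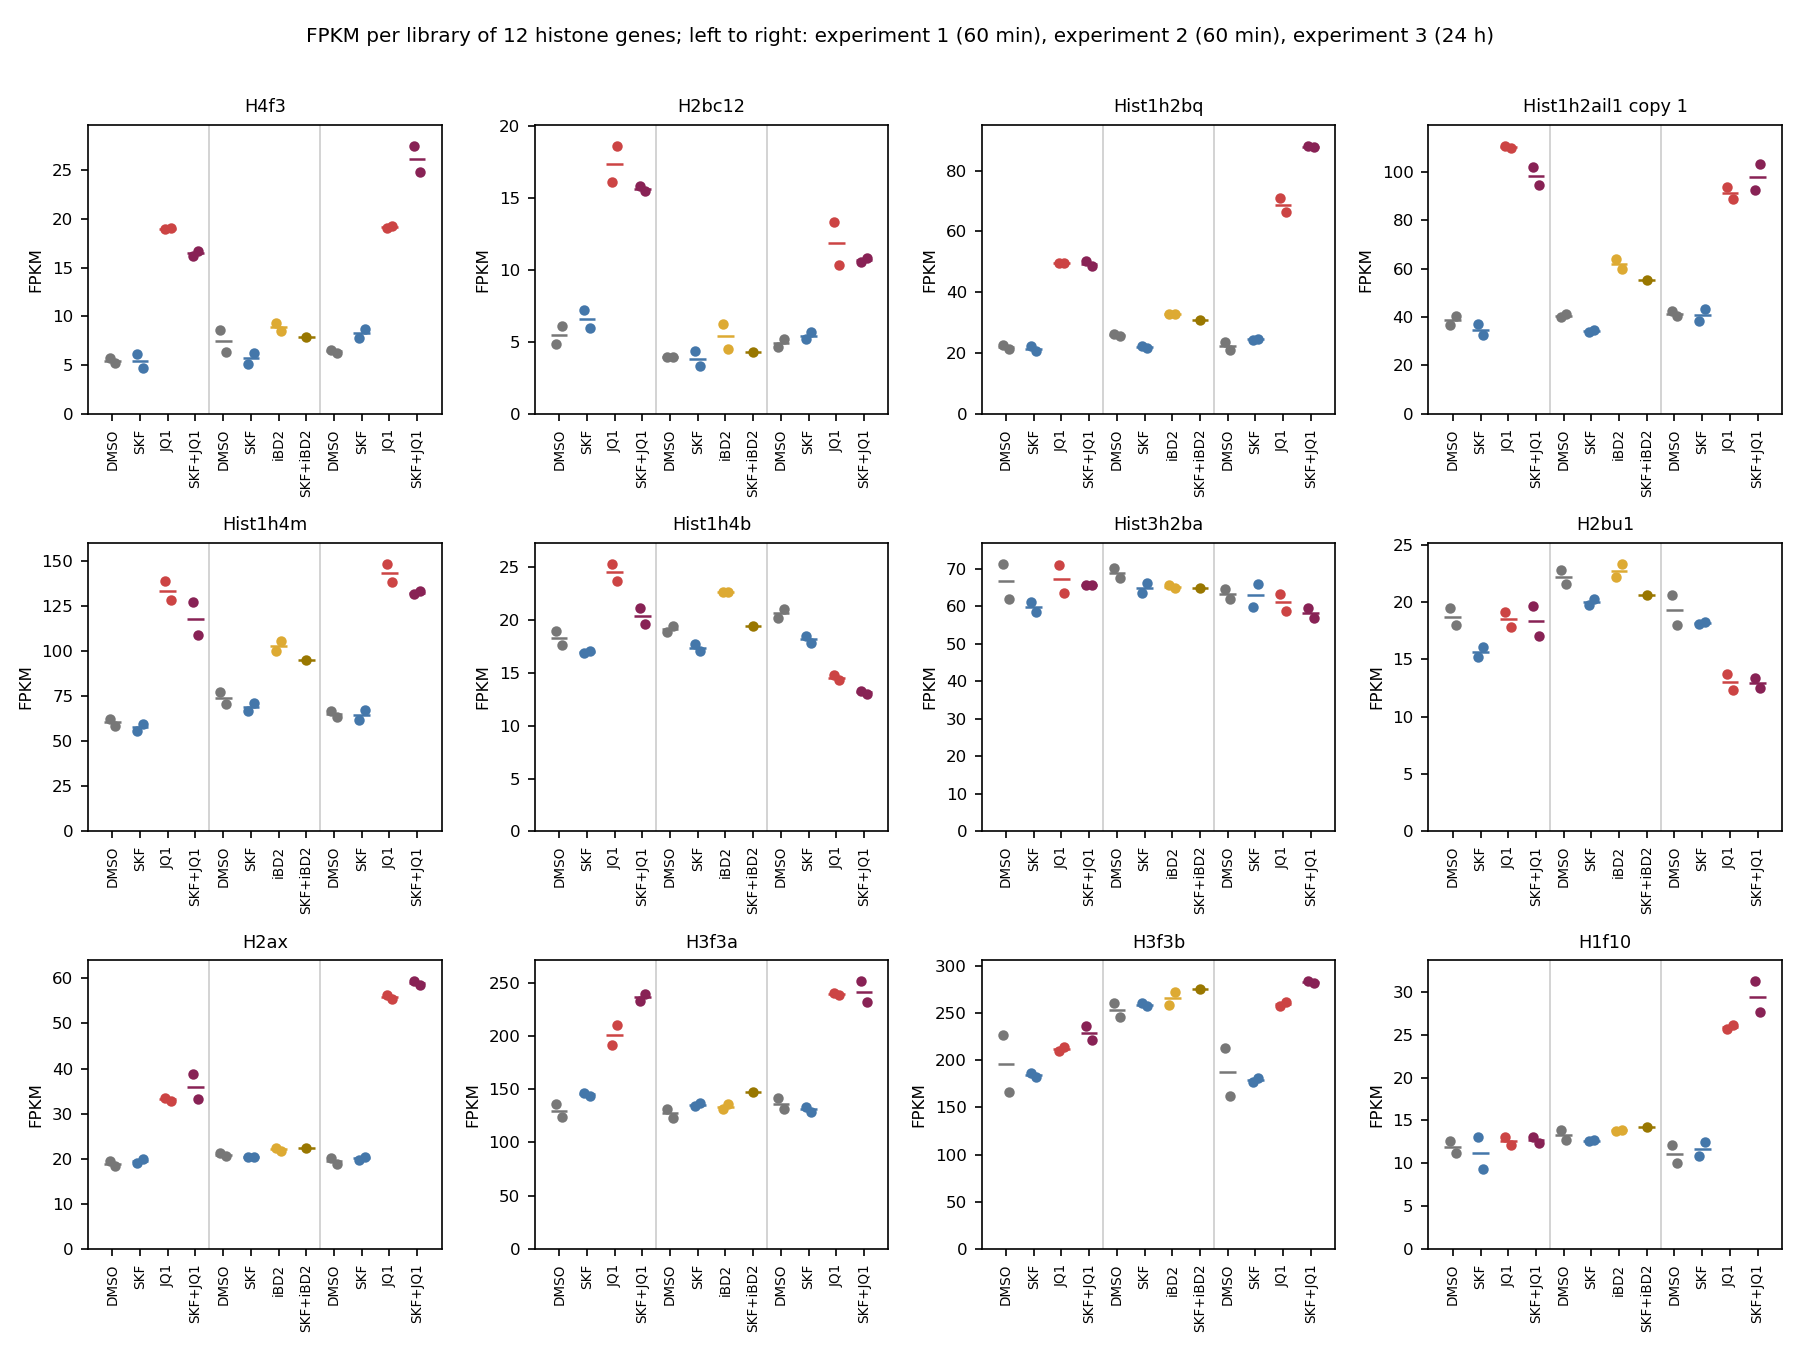
FPKM per library (vertical axis, linear from 0) of 12 histone genes in the 12 groups. Each point is 1 library, short bars are group means, and grey lines separate experiments 1, 2 and 3. H4f3, H2bc12, Hist1h2bq, Hist1h2ail1 copy 1 and Hist1h4m are high in the JQ1 groups at both times, Hist3h2ba stays between 57.0 and 71.3 FPKM, and H1f10 is at 25.7 to 31.3 FPKM with JQ1 at 24 h and at 14.2 FPKM or less in the other groups.

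Promoter sequences were matched for 29 of the 48 members in the RefSeq promoter table of build GRCr8, which is a newer build than that of the files. No gene counted as H3 or H4, clustered or variant, was among the 29. The 300-base windows run from before the transcript start to just after it. They are shown because members that moved together can be compared with members that did not. Capitals mark the octamer ATTTGCAT bound by POU2F1, the TATA motif TATAAA and the motif CCAAT, each on either strand. H2bc12 and Hist1h2bd, H2B genes raised by JQ1, lie at chr17:47181891-47182190 and chr17:47488959-47489258 on the minus strand.
H2bc12: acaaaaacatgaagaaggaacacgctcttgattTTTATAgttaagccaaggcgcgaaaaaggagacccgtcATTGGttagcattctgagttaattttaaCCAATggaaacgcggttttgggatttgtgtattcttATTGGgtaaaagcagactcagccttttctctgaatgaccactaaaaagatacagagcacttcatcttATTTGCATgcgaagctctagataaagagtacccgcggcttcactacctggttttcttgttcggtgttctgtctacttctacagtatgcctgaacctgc
Hist1h2bd: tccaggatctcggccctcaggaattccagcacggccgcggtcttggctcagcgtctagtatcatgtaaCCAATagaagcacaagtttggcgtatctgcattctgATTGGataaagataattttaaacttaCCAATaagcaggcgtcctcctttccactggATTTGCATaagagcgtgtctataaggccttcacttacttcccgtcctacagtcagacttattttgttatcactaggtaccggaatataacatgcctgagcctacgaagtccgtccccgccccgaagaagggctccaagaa
H4f3, the gene with the largest change, lies at chr17:41980292-41980591 on the minus strand, and H2bu1, whose JQ1 and DMSO libraries overlapped, at chr10:44233016-44233315 on the minus strand.
H4f3: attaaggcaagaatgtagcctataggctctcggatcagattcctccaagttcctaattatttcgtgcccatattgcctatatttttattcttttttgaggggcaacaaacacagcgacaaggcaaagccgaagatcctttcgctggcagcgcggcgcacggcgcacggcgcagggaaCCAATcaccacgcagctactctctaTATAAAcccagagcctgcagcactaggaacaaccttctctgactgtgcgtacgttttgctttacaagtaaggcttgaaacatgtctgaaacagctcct
H2bu1: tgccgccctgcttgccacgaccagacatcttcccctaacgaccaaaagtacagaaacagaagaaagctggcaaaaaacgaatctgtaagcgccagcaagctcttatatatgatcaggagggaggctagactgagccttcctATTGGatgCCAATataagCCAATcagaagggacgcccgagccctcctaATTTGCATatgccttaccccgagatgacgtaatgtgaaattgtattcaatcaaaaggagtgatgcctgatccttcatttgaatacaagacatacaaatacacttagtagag
The variant H2ax lies at chr8:53568468-53568767 on the plus strand and the linker gene H1f10 at chr4:121998848-121999147 on the minus strand.
H2ax: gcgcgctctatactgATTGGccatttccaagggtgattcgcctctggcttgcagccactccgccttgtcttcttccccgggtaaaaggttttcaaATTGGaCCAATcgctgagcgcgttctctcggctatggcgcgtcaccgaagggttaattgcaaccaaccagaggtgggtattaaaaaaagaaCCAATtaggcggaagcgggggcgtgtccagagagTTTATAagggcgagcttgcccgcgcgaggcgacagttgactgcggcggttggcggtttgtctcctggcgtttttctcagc
H1f10: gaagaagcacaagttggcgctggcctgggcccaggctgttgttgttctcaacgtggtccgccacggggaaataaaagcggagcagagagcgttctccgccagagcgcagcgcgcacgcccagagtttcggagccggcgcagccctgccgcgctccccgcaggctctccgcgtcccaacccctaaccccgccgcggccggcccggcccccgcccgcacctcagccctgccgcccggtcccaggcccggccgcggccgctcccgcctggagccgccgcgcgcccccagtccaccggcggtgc

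The octamer was present in 11 of the 29 matched members and in 1.78% of 33469 promoters of the same length. It was found in 6 of 9 clustered H2B and 5 of 7 clustered H2A promoters, in 0 of 6 clustered H1 promoters and in 0 of 7 promoters of variants and unclustered linker genes. TATAAA was in 18 of 29 against 14.2% of all promoters, and CCAAT in 27 of 29 against 37.5%. All these counts leave out the H3 and H4 genes, which had no matched promoter. Members with and without the octamer overlapped in their JQ1 changes, with a higher median in those with it. Of 9 tested members with it 7 rose, with log2 differences of 0.01 to 1.61 (median 1.24). Of 16 without it 9 rose, with differences of -0.04 to 1.74 (median 0.76). The members with the octamer were all clustered H2A or H2B genes, and those without it include H1 genes and variants. The 2 sets thus also differ in histone type and class, and a link to the octamer was not tested. H2bu1 and H2bc12 both hold the octamer and CCAAT and lie at opposite ends of the JQ1 order. H1f10 holds none of the 3 motifs. Divergent H2A and H2B neighbours can share such a stretch, so the promoters are not independent. A match of letters is a description and does not show binding.

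The histone genes also rose with JQ1 when SKF was present. With SKF present in both groups, JQ1 for 60 min raised 32 of 43 histone genes and lowered 0 (limma, adjusted p under 0.05), where 2.69% of all genes tested rose and 3.86% fell. Of these 32, 30 were also called with JQ1 alone. H1f6, tested only because of libraries given JQ1, is among the 32. H2bc12 had 7.21 and 5.96 FPKM in SKF and 15.8 and 15.4 FPKM in SKF plus JQ1. H2ax had 19.0 and 20.0 FPKM in SKF and 38.7 and 33.2 FPKM in SKF plus JQ1. In both the groups are apart, by log2 changes of 1.19 ± 0.16 and 0.87 ± 0.05 (SE). The difference between the SKF effect with JQ1 and without it passed the test for 0 of 43 histone genes, where 0.00714% of all genes passed, and 6 had an unadjusted p under 0.05. For Hist1h2bq this difference was 0.02 with a 95% interval of -0.12 to 0.15.

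Few histone genes changed with SKF alone. At 60 min in experiment 1, 0 of 43 were called (limma), where 1.69% of all genes were, and 9 had an unadjusted p under 0.05. In experiment 2, 3 of 43 fell and 0 rose, where 0.343% of all genes fell and 2.02% rose. Hist2h4a went from 119 and 120 FPKM in DMSO to 95.6 and 93.8 FPKM in SKF, a log2 change of -0.29 ± 0.05 (SE; limma adjusted p = 0.000805). H1f2 went from 62.3 and 56.1 FPKM to 45.3 and 47.8 FPKM, a log2 change of -0.30, and Hist1h2bq from 26.3 and 25.7 FPKM to 22.2 and 21.5 FPKM, a log2 change of -0.21. The SKF libraries of these 3 genes all lay below the controls in experiment 2. In experiment 1 the log2 differences of the same 3 genes were -0.11 for Hist2h4a, -0.11 for H1f2 and -0.02 for Hist1h2bq. Without replicate 1 of DMSO or replicate 2 of SKF 1 call was left. After 24 h of SKF, 2 of 43 rose and 0 fell, where 0.621% of all genes rose and 0.864% fell: H1f4 from 35.1 and 26.7 FPKM to 39.9 and 46.5 FPKM, and H1f2 from 49.9 and 41.2 FPKM to 59.0 and 61.3 FPKM. The log2 changes of these linker genes were 0.49 and 0.40, and 0 calls were left without replicate 6 of DMSO or of SKF, or with experiment 3 fitted alone. Microglia markers summed to 61.1 to 78.8 FPKM in DMSO and 27.6 to 38.5 FPKM in SKF at 24 h, and their part in this result was not tested.

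iBD2 for 60 min raised 10 of 43 histone genes and lowered 0 (limma, adjusted p under 0.05), where 0.171% of all genes tested rose and 0% fell. Of all 13999 genes 24 passed, and 10 of the 24 were histone genes. All 10 were clustered genes, 7 on chromosome 17 and the 3 indistinguishable H4 copies on chromosome 4, and all 10 had also been called with JQ1. With the copies counted once, 8 of 41 were called. With experiment 2 fitted alone 5 of the 10 were kept, and with the replicate number as a block 7 were, the H4 copies being lost. None of the 7 variants was called. The H3 gene Hist1h3b had 6.38 and 8.21 FPKM in the DMSO libraries of experiment 2 and 14.1 and 13.5 FPKM in the iBD2 libraries, and the log2 change was 0.92 ± 0.13 (SE; limma adjusted p = 0.00726). Hist1h2ail1 copy 1 had 40.1 and 41.1 FPKM in DMSO and 63.7 and 59.6 FPKM in iBD2, a log2 change of 0.64 ± 0.07 (SE; limma adjusted p = 0.00127). Hist1h2bq had 26.3 and 25.7 FPKM against 32.7 and 32.8 FPKM. Hist1h4m had 77.1 and 70.7 FPKM against 99.99 and 106 FPKM. In all 4 of these genes both iBD2 libraries lay above both controls.

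The largest iBD2 change was that of hist1h2ail2, an H2A gene by name, from 1.83 and 1.46 FPKM in DMSO to 4.05 and 3.05 FPKM in iBD2, a log2 change of 0.94 ± 0.14 (SE; limma adjusted p = 0.00726). Some genes were high in both orders: H2bc9, an H2B gene, changed by 1.56 with JQ1 and 0.58 with iBD2, and Hist1h2ail1 copy 1 by 1.52 and 0.64. The 2 genes with the largest JQ1 changes did not pass with iBD2. H4f3 had 8.60 and 6.38 FPKM in DMSO and 9.33 and 8.54 FPKM in iBD2, a log2 difference of 0.29 that did not pass. H2bc12 had 3.97 and 3.97 FPKM against 6.23 and 4.53 FPKM, a log2 difference of 0.42. The variant H2ax had 21.2 and 20.6 FPKM against 22.5 and 21.7 FPKM, a log2 difference of 0.12 ± 0.05 (SE). The summed level of clustered genes was 673 FPKM in DMSO and 811 FPKM in iBD2, a ratio of 1.2, and the ratio for variants was 1.03. The number of calls rested on few libraries: it was 4 without either DMSO library of experiment 2 and 3 without either iBD2 library. It was 6 with FPKM as deposited, without the size factors. With SKF in both groups, 2 of 43 rose with iBD2 (Hist1h2bq, log2 change 0.48, and Hist1h2ail1 copy 1, log2 change 0.67) and 0 fell, where 0.0143% of all genes rose and 0.00714% fell. That comparison has 1 SKF plus iBD2 library, at 30.8 FPKM for Hist1h2bq against 22.2 and 21.5 FPKM in SKF, and without replicate 2 of SKF 1 call was left. The SKF effect differed with iBD2 for 0 of 43 genes, where 0.0143% of all genes passed, and 2 had an unadjusted p under 0.05.

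The inhibitors were compared by their effects, each taken against the DMSO libraries run beside it, since JQ1 and iBD2 were not used in the same experiment and no doses are given. The JQ1 effect exceeded the iBD2 effect for 17 of 43 histone genes and was below it for 0 (limma, adjusted p under 0.05), where 0.529% of all genes were higher and 0.421% lower. These were 15 clustered genes, H2ax and H3f3a. The largest difference was that of the H2A gene H2ac20, at 1.52 ± 0.18 (SE; limma adjusted p = 0.000266). H2ac20 went from 3.55 and 2.46 FPKM to 9.36 and 9.90 FPKM with JQ1 and from 5.22 and 5.64 FPKM to 5.69 and 5.24 FPKM with iBD2. The DMSO levels of H2ac20 were thus higher in experiment 2 than in experiment 1. For H4f3 the difference was 1.44 ± 0.16 (SE; limma adjusted p = 9.58e-05). For the H3 gene Hist1h3b, which passed with both inhibitors, it was 0.44 with a 95% interval of 0.05 to 0.83, and for Hist1h2bq 0.81 ± 0.06 (SE). The experiments also differed in depth, at 7.23 to 11.4 gigabases in experiment 1 and 4.36 to 7.20 in experiment 2. In DMSO, astrocyte markers summed to 399 to 418 FPKM in experiment 1 and 146 to 155 FPKM in experiment 2. Microglia markers summed to 65.3 to 78.7 FPKM and 34.5 to 39.4 FPKM in the same order. The part of these differences was not tested. A difference of dose, compound or experiment cannot be told apart here.

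**Figure D3:**
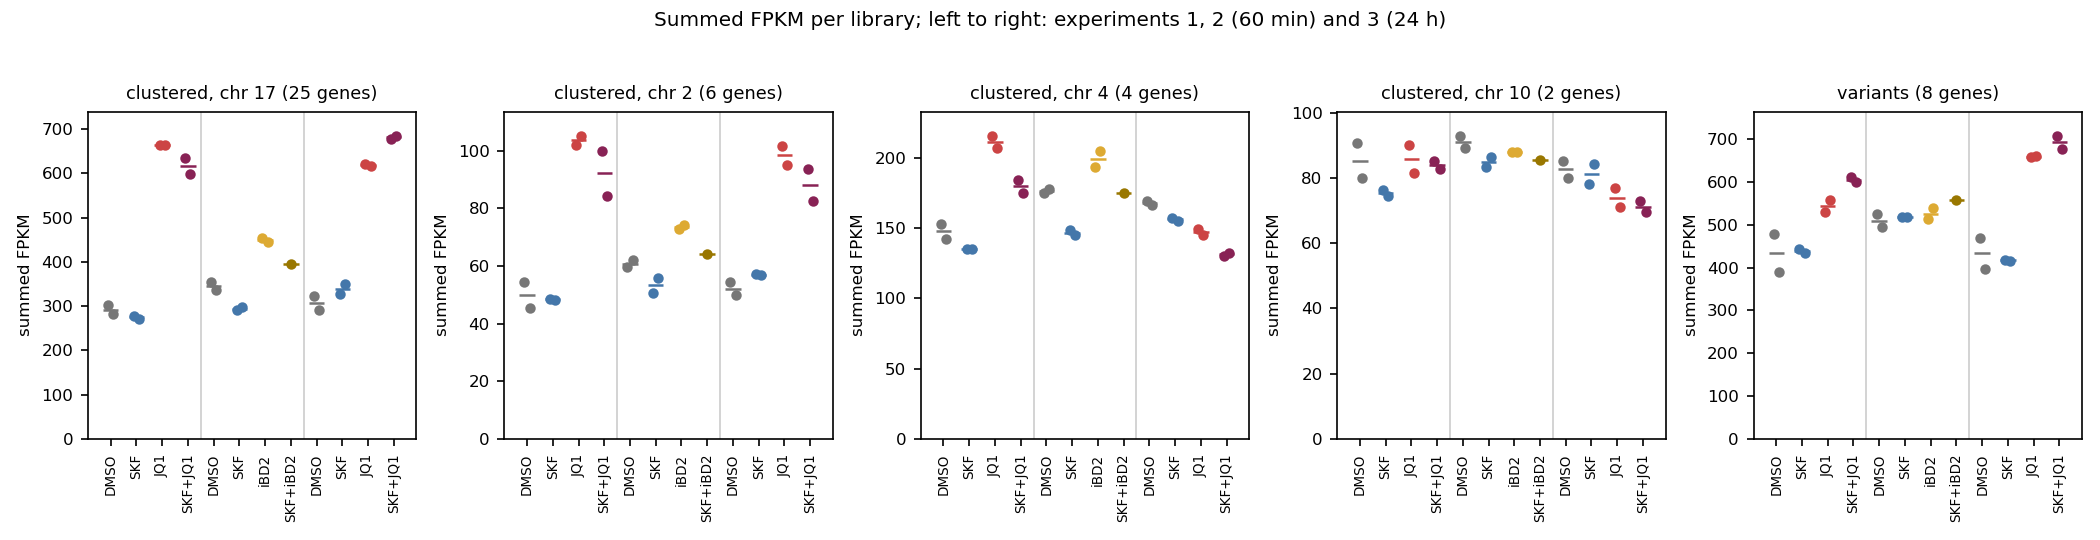
Summed FPKM per library (vertical axes, linear from 0) of the clustered genes of 4 chromosomes and of the variants. Points are libraries, short bars are group means, and grey lines separate experiments 1, 2 and 3. The chromosome 17 sum is 664 to 665 FPKM with 60 min of JQ1 against 282 to 302 FPKM in its DMSO libraries, and the chromosome 10 sum stays between 69.5 and 93.0 FPKM in all libraries.

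After 24 h of JQ1 the calls differed: more variants and H1f10 were called higher, and some clustered genes were below DMSO. Of 43 genes, 31 were higher and 5 lower (limma, adjusted p under 0.05). At this time 25.6% of all genes tested were higher and 30.4% lower, so JQ1 changed much of the transcriptome. Of the 31 higher genes, 24 were those also called at 60 min and 7 were H1f10, H1f6, H2az1, H2az2, H3f3b, H3f3c and Hist2h2be. Of these 7, only H1f10 and H3f3b had an effect that passed the test against the effect at 60 min. For H2az1 the log2 differences were 0.16 at 60 min and 0.18 at 24 h, so a call at 24 h alone does not show a late rise. H1f6, and Hist1h2af among the 24, would not have met the minimum for testing without the JQ1 libraries. Their tests therefore favour a rise and are no independent support. The 24 h cultures also differed in other ways. Microglia markers summed to 61.1 to 78.8 FPKM in DMSO and 9.12 to 13.0 FPKM in JQ1, all 10 of them were lower, and Itgam was listed at 0 in both JQ1 libraries. Of the S phase and cell division list 15 of 25 rose and 5 fell, and its 29 genes in the files summed to 105 to 112 FPKM in DMSO and 119 to 124 FPKM in JQ1. Astrocyte markers (4 of 10 lower) and oligodendrocyte lineage markers (3 of 9 higher, 4 lower) moved as well. Of 10 neuron markers 1 was higher and 2 were lower. Neuron markers summed to 2503 to 2679 FPKM in DMSO and 2244 to 2356 FPKM in JQ1. The part of all these in the histone result was not tested.

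H1f10 was the clearest case of a late change. Its level was 12.2 and 10.1 FPKM in the DMSO libraries of experiment 3 and 25.7 and 26.2 FPKM in the JQ1 libraries, a log2 change of 1.26 ± 0.10 (SE; limma adjusted p = 3.19e-08). H2ax had 20.0 and 18.7 FPKM in DMSO and 56.2 and 55.5 FPKM in JQ1, a log2 change of 1.57 ± 0.05 (SE; limma adjusted p = 1.78e-12). Hist1h2bq had 23.7 and 20.8 FPKM against 71.1 and 66.5 FPKM, the largest log2 change of the members at this time, 1.68 ± 0.04 (SE). In all 3 genes both JQ1 libraries stood far above both controls. H3f3a had 142 and 131 FPKM against 240 and 239 FPKM, and H3f3b had 213 and 162 FPKM against 258 and 261 FPKM. H3f3c had 47.9 and 42.4 FPKM against 54.4 and 55.1 FPKM. All 3 H3.3-type genes rose, by log2 changes of 0.35 to 0.88. H2az1 had 42.6 and 38.8 FPKM against 44.2 and 43.9 FPKM, and H2az2 had 4.02 and 3.23 FPKM against 4.35 and 4.30 FPKM. These H2A.Z changes were small, at 0.18 and 0.30 on the log2 scale. Both calls were lost without replicate 6 of DMSO and with FPKM as deposited, and that of H2az1 also without either JQ1 library. H2aj had 0.939 and 0.638 FPKM against 1.03 and 1.01 FPKM and did not pass.

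The 5 genes below DMSO at 24 h were H2bu1, H2ac21 and the 3 indistinguishable H4 copies. H2bu1 had 20.6 and 18.0 FPKM in DMSO and 13.7 and 12.3 FPKM in JQ1, a log2 change of -0.48 ± 0.07 (SE; limma adjusted p = 1.45e-05). Hist1h4b, standing for the 3 copies, had 20.2 and 21.1 FPKM against 14.8 and 14.3 FPKM, a log2 change of -0.42 ± 0.05 (SE; limma adjusted p = 2.85e-06). H2ac21, an H2A gene, had 12.8 and 16.0 FPKM against 12.1 and 8.83 FPKM, a log2 change of -0.38 (limma adjusted p = 0.0204), and its call was lost without replicate 6 of DMSO or of JQ1. The Hist1h4b copies had risen at 60 min, from 18.9 and 17.6 FPKM to 25.3 and 23.7 FPKM, so their direction turned. Hist2h4a, also H4 on chromosome 4, had 109 and 103 FPKM against 105 and 102 FPKM at 24 h, which overlap. Hist3h2ba again overlapped its controls, at 64.7 and 62.1 FPKM against 63.4 and 58.7 FPKM. By locus, 19 of 23 chromosome 17 genes rose, 5 of 6 on chromosome 2 rose and 1 fell, and on chromosome 4 the 3 H4 copies, 1 measurement, fell.

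**Figure D4:**
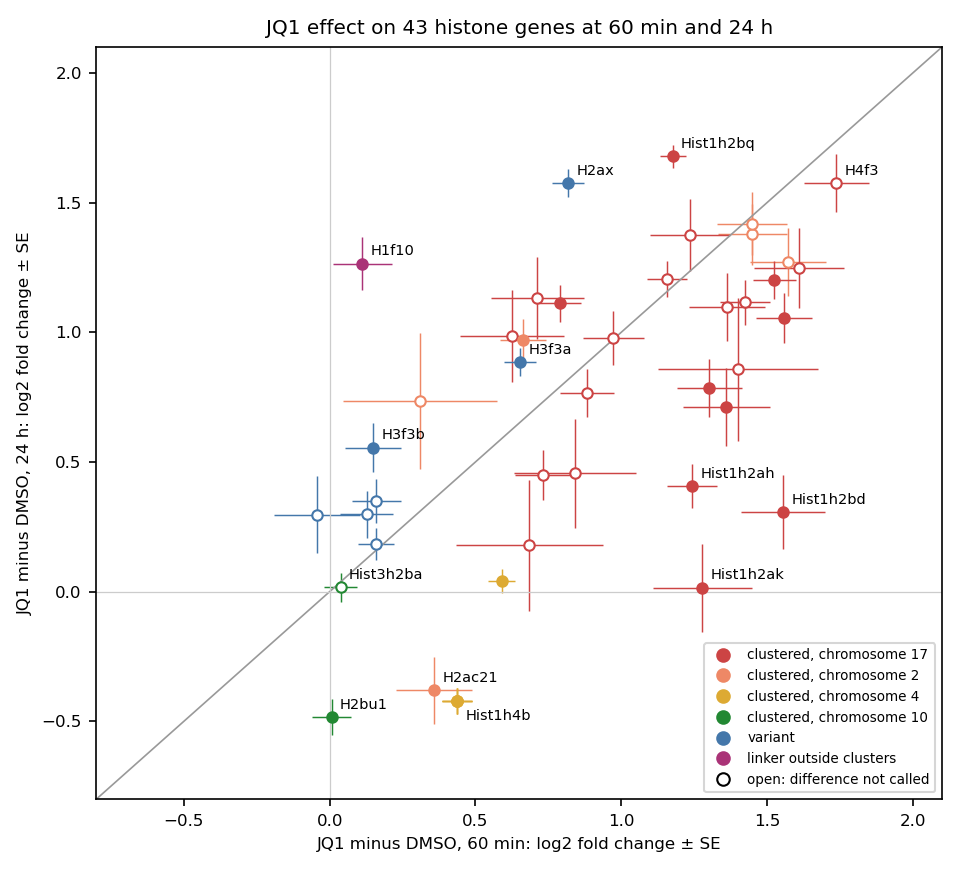
Log2 fold change of JQ1 against DMSO at 60 min (horizontal axis) and 24 h (vertical axis) for the 43 histone genes tested, with standard errors. The diagonal marks equal changes, colours mark the locus or class, and filled points are genes whose change differed between the times. H1f10, H2ax and Hist1h2bq lie above the diagonal, and Hist1h2ak, Hist1h2bd and the chromosome 4 genes lie below it.

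The JQ1 effect at 24 h was tested against that at 60 min, each taken against its own DMSO libraries, so time and experiment cannot be told apart. It was larger for 7 and smaller for 13 of 43 histone genes (limma, adjusted p under 0.05), where 15.5% of all genes were larger and 20.7% smaller. The share of histone genes with a larger effect is near that background. The 13 smaller effects were all of clustered genes, which make up 35 of the 43 tested. With the H4 copies counted once, 11 of 41 effects were smaller, which is not far from the 20.7% of all genes. The H2A gene Hist1h2ak had 6.26 and 3.84 FPKM in DMSO and 11.6 and 13.2 FPKM in JQ1 at 60 min, and 5.90 and 5.32 FPKM against 4.73 and 6.14 FPKM at 24 h. The log2 difference of its effects was -1.26 ± 0.24 (SE), and at 24 h the groups overlap. Hist1h2bd had 4.14 and 3.21 FPKM against 11.2 and 11.8 FPKM at 60 min, and 4.85 and 4.62 FPKM against 5.29 and 6.11 FPKM at 24 h. The 7 larger effects were those of H1f10, H2ax, H3f3a, H3f3b, Hist1h2bq, H1f2 and Hist2h3c2. The summed clustered genes were 1.54 times DMSO at 24 h and the summed variants 1.52 times, against 1.85 and 1.25 at 60 min.

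With SKF in both groups, 24 h of JQ1 raised 30 and lowered 5 of 43 histone genes (limma), where 26% of all genes rose and 30% fell. Of the 30, 29 were also higher with JQ1 alone, and the 5 lower genes were the same 5. The 30 include H1f6 and Hist1h2af, which were tested only because of libraries given JQ1. H1f10 had 10.8 and 12.4 FPKM in SKF and 31.3 and 27.7 FPKM in SKF plus JQ1. H4f3 had 7.84 and 8.73 FPKM in SKF and 27.5 and 24.8 FPKM in SKF plus JQ1. The JQ1 libraries were again apart from the others, by log2 changes of 1.36 and 1.65. All 7 variants tested were called here, H2aj included. The SKF effect with JQ1 minus that without it passed for 0 of 43, where 0.0429% of all genes passed, and 8 had an unadjusted p under 0.05. Microglia markers were lowest in these libraries, at 0.898 to 1.94 FPKM summed against 27.6 to 38.5 FPKM in SKF, and all 10 were lower. Of the other markers, 4 of 10 for astrocytes were higher and 2 lower, 2 of 10 for neurons were lower, and 3 of 9 for the oligodendrocyte lineage were higher and 2 lower. Of the S phase list 15 of 25 were higher and 4 lower, and the part of all these in the histone result was not tested.

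Genes that act on histone messages or use their products were counted from lists. Of 23 genes for histone transcription and 3′ end processing, 1 rose and 1 fell with 60 min of JQ1, where 1.8% of all genes rose and 2.64% fell. Slbp, whose product binds the stem-loop of replication-type messages, rose by 0.53 ± 0.08 on the log2 scale (SE; limma adjusted p = 0.000675), and Cstf1, a cleavage factor subunit, fell by 0.30. Casp8ap2, which serves histone gene transcription, had a log2 difference of -0.24 (limma adjusted p = 0.0582). With SKF in both groups, 60 min of JQ1 raised 1 of these 23 genes and lowered 5. There 2.69% of all genes rose and 3.86% fell, so the share of the list that fell was above that of all genes. With 24 h of JQ1 alone, 25.6% of all genes rose and 30.4% fell. Of these 23, 6 rose and 4 fell at that time, and the log2 difference of Slbp was 0.20 and did not pass. Of 20 histone chaperones, which escort histones to DNA, 0 were called with 60 min of JQ1, and 8 rose and 3 fell at 24 h, against the same shares of all genes. Of 25 S phase and cell division genes, 1 rose at 60 min, where 1.8% of all genes rose. It was the replication clamp gene Pcna, by 0.31 ± 0.05 on the log2 scale (SE). Counts of 1 in lists this small are near the shares of all genes. The 29 genes of that list in the files summed to 105 to 110 FPKM in DMSO and 111 to 111 FPKM in JQ1 at 60 min. Among genes that regulate the elongation factor P-TEFb, Hexim1, an inhibitor of P-TEFb that is known to respond to BET inhibitors, rose by 1.22 ± 0.09 with JQ1 and by 0.51 ± 0.09 with iBD2 on the log2 scale (SE), Mepce rose by 0.38 and Hexim2 fell by 0.43. With iBD2, 0 genes of the lists for histone messages, chaperones and S phase were called. No marker of neurons, astrocytes, oligodendrocyte lineage or microglia was called with 60 min of either inhibitor.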

How the data were processed

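RNA sequencing of 23 libraries in 12 groups was analysed. Per the submitters' processing notes the tools were Trim Galore, FastQC, STAR, StringTie and DESeq2 and the build Rnor_6.0, without versions. The deposited tables hold the FPKM of each transcript and its coverage (average read depth along the transcript), both computed by the authors. FPKM served for all tests, and coverage for depth and for finding copies that share reads. The kit is stranded per the labels' protocols; strand use in counting is not stated there.

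Transcript FPKM were added up within each gene. Each library was scaled by its median-ratio size factor, which ranged from 0.952 to 1.07, and the test scale was log2(FPKM + 0.5), which understates changes of low genes. Genes needed 0.5 FPKM in at least 2 libraries and a transcript of 200 nucleotides, which left 13999. H1f6 and Hist1h2af would not have met this without the libraries given JQ1. One linear model with a mean for every group (limma 3.58.1, run in R 4.3.3 with a trended and robust prior, 11 residual degrees of freedom) gave all comparisons, two-sided, called at a Benjamini-Hochberg adjusted p under 0.05. The steps were tested on simulated data. The members, the gene lists and the naming rule were chosen with earlier results of these data known. By that rule any member may be named, with values per library for the 2 most abundant clustered genes of each histone type, the 2 largest and 2 smallest JQ1 changes at 60 min, and every variant and H1f gene, and from each list up to 3 genes with the smallest p. Classes had been written by name, with all H1f genes outside the clusters. The files place H1f1, H1f2, H1f4, H1f5 and H1f6 in the chromosome 17 cluster, so position was used for genes on that chromosome. H2bu1, beside Hist3h2ba, was also counted as clustered. Both choices were made after seeing the data. Variants stayed classed by name wherever they lie. By name, 25 of 29 clustered, 4 of 6 linker and 2 of 7 variant genes rose with 60 min of JQ1, and H2bu1, in none of these classes, did not. Results were also recomputed on unscaled FPKM, with a pseudocount of 0.1 or 1, without the filter, by experiment, with the replicate number as a block, and without each library in turn.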

Additional observations from a re-analysis of the deposited data

Results flagged for a closer look

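The JQ1 effect differed between 24 h and 60 min for 20 histone genes (limma contrast of the effects, adjusted p under 0.05), 7 of 43 larger and 13 smaller, where 15.5% of all genes were larger and 20.7% smaller. The share of larger effects is near that of all genes. Hist1h2ao, Hist1h4b and Hist2h4 are 1 measurement. With these copies counted once, 11 of 41 effects were smaller, not far from the share of all genes. The values are the log2 effect at 24 h minus that at 60 min. The effect was larger at 24 h by 1.15 for H1f10, 0.76 for H2ax, 0.50 for Hist1h2bq, 0.41 for H3f3b, 0.32 for H1f2, 0.31 for Hist2h3c2 and 0.23 for H3f3a. It was smaller for the others, with differences of -1.26 for Hist1h2ak, -1.25 for Hist1h2bd, -0.86 for Hist1h2ao, -0.86 for Hist1h4b, -0.86 for Hist2h4, -0.84 for Hist1h2ah, -0.74 for H2ac21, -0.65 for Hist1h2an copy 1, -0.55 for Hist2h4a, -0.52 for Hist1h2bo, -0.50 for H2bc9, -0.49 for H2bu1 and -0.32 for Hist1h2ail1 copy 1. The times come from different experiments, and time and experiment cannot be told apart.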

How the results depend on the processing

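Of the 31 histone genes called with 60 min of JQ1, all 31 stayed called in the same direction with FPKM as deposited, with either pseudocount and with the replicate block, and 30 did so without the filter and with experiment 1 alone. No called histone gene turned its direction under the alternatives run. The count of histone genes called changed by over 1.5 times in 4 cases. With experiment 2 alone 6 genes were called for SKF at 60 min (3 in the joint model). With FPKM as deposited 6 were called for iBD2 (10 in the joint model). Without the filter 4 were called for iBD2 with SKF (2 with it). With experiment 3 alone 0 were called for SKF at 24 h (2 in the joint model). The cause was not tested.

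Leaving out each library in turn gave 28 to 33 calls for JQ1 at 60 min, 26 to 33 for JQ1 with SKF at 60 min, 32 to 37 for JQ1 at 24 h, 32 to 36 for JQ1 with SKF at 24 h, 3 to 12 for iBD2, 1 to 3 for iBD2 with SKF, 14 to 19 for JQ1 against iBD2 and 14 to 20 for 24 h against 60 min. It gave 0 to 1, 1 to 4 and 0 to 2 for SKF in experiments 1, 2 and 3, and 0 to 0 for the 3 differences of the SKF effect.

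The deviations of same-numbered libraries correlated at -0.27 to 0.37, not above 0.1 in every pair, so the numbers were not taken to pair the samples. With the replicate number as a block, calls numbered 32 for JQ1 at 60 min, 36 for JQ1 at 24 h and 7 for iBD2, which lost the 3 H4 copies (adjusted p = 0.0794), and 2 for SKF in experiment 2. The tables used hold no read counts, so counting error is not known per gene.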
